A study of Mus musculus with 6 samples.

Results

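Of the 49 genes described here, all but Psmc3ip encode the proteasome, its activators and inhibitor or its assembly chaperones, in mouse alveolar macrophages. The 49 are the genes of the deposited table whose symbol begins with Psma, Psmb, Psmc, Psmd, Psme, Psmf or Psmg followed by a digit, out of 10539 listed genes. The tested libraries, CEBPβ-A, come from alveolar macrophages of strain C57BL/6 that overexpressed C/EBPβ and had received an adenovirus carrying A20, the ubiquitin-editing enzyme encoded by Tnfaip3 (n = 3). The libraries they are set against, CEBPβ, come from C57BL/6 alveolar macrophages that overexpressed C/EBPβ without that treatment in their label (n = 3). Both groups thus share the C/EBPβ overexpression, while the sources used here do not say how it was brought about, which virus the CEBPβ cells received, or how old the mice were. Group names are used as the libraries are labelled. The labels call the libraries replicates without naming separate animals or cultures, so p-values speak for the spread among these 6 libraries, a spread that may be technical. RNA was extracted from whole preparations, in which fewer cells of a type and less RNA per cell cannot be told apart.

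The proteasome is the protease of the cytosol and nucleus that degrades proteins tagged with ubiquitin. Its 20S core is a barrel of α rings that gate the entrance and β rings that hold the catalytic sites, and a 19S cap of ATPases and non-ATPase subunits binds, unfolds and feeds in the substrate. Under interferon, and constitutively in many immune cells, the catalytic subunits β1, β2 and β5 are replaced by β1i, β2i and β5i (genes Psmb9, Psmb10 and Psmb8), and the PA28 activator of Psme1 and Psme2 can take the place of the cap. This immunoproteasome changes the peptides offered on MHC class I. Of the 49 genes, 32 were counted as constitutive subunits, with the α-type Psma8 among them, and 5 as immunoproteasome members (Psmb8, Psmb9, Psmb10, Psme1 and Psme2). The other 12 comprise 7 assembly chaperones, 4 further activator or inhibitor genes and Psmc3ip, a meiotic recombination factor that shares only the start of its symbol with the proteasome.

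Levels are given as FPKM, fragments scaled by gene length and library total. The length used for each gene is not given in the sources used here, and comparisons of level between genes depend on it. All 49 genes had a mean of at least 1 FPKM over the 6 libraries and were tested among 9617 genes with limma on log2(FPKM + 1), which understates the change of low genes. A fold change is the mean of CEBPβ-A minus that of CEBPβ on that log2 scale, SE is its standard error, and a gene passed at a Benjamini-Hochberg adjusted p under 0.05 over all genes tested. Of all genes tested, 5 passed (0.0520%), 2 of them higher (0.0208%) and 3 lower (0.0312%) in CEBPβ-A, and 0 were proteasome genes. The unadjusted p was under 0.05 for 787 genes (8.18%), of which 2 were proteasome genes.

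The libraries carried the signature of their labelled cell type, as all 12 alveolar macrophage markers were listed, with Siglecf at 101 to 106 FPKM and Lyz2 at 19554 to 29717 FPKM. Markers of T and NK cells, B cells and erythroid cells were not among the listed genes. The neutrophil markers held 3 of 7 listed genes, S100a8, Mmp8 and Camp, with a summed level of 339 to 369 FPKM in CEBPβ-A and 247 to 306 FPKM in CEBPβ, and Ly6g, Elane, S100a9 and Retnlg were not among the listed genes. Epithelial markers, 3 of 7 listed, summed to 33.3 to 67.1 FPKM in CEBPβ-A and 29.1 to 39.3 FPKM in CEBPβ, with Scgb1a1 at 59.4 FPKM in CEBPβ-A replicate 3. Interstitial macrophage and monocyte markers, 5 of 6 listed, summed to 4.36 to 4.73 FPKM in CEBPβ-A and 5.76 to 6.34 FPKM in CEBPβ, and the 1 of 5 dendritic cell markers listed, Clec9a, lay at 0.345 to 0.467 FPKM in CEBPβ-A and 0.177 to 0.410 FPKM in CEBPβ. The part of these cells in the results was not tested. Tnfaip3, counted at the mouse gene, averaged 10.2 FPKM in CEBPβ-A and 15.2 FPKM in CEBPβ (limma adjusted p = 0.606), so that the delivery of A20 named in the labels was not visible there. CEBPβ-A replicate 3 stood apart, with a score of 25.7 on the leading principal component and −11.7 to −0.095 for the other 5 libraries, and 25.4% of all genes tested had their highest value in it. Where leaving out that library moves a fold change or a median by over 1.5 times, the value without it stands beside it.

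The proteasome genes were well expressed, with a median gene mean of 29.0 FPKM against 7.57 FPKM over all genes tested. Psme2, a subunit of PA28, had the highest mean level (114 FPKM), followed by the core subunit genes Psmb1 (105 FPKM) and Psma6 (101 FPKM). The lowest was Psma8 (2.06 FPKM), an α-type subunit known mainly from testis. Between libraries of a group the constitutive subunits varied by a median SD of 0.10 on the log2(FPKM + 1) scale, against 0.13 over all genes tested.

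The catalytic subunits define the difference between the constitutive proteasome and the immunoproteasome. Psmb8, the gene of the inducible chymotrypsin-like subunit β5i, stood at 42.4, 39.0 and 46.0 FPKM in CEBPβ-A replicates 1, 2 and 3 and at 39.1, 40.6 and 40.7 FPKM in CEBPβ replicates 1, 2 and 3. The groups overlapped, with CEBPβ-A holding the lowest and the highest value (log2 fold change 0.076, SE 0.080, limma adjusted p = 0.724, and 0.019 without CEBPβ-A replicate 3). Its constitutive counterpart Psmb5, the gene of β5, stood at 84.7, 80.9 and 105.5 FPKM in CEBPβ-A and at 84.8, 75.2 and 88.4 FPKM in CEBPβ. One library, CEBPβ-A replicate 3, was above the rest, and the fold change of 0.12 (SE 0.12, limma adjusted p = 0.707) was 0.0030 without it. Psmb5 thus had the higher level per length in every library.

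Psmb9, the gene of the inducible subunit β1i, was the immunoproteasome gene with by far the lowest level. It stood at 5.88, 5.13 and 4.65 FPKM in CEBPβ-A and at 6.27, 5.67 and 5.42 FPKM in CEBPβ, and was the one of the 5 immunoproteasome genes with a negative fold change. The groups overlapped and the difference was within the spread (log2 fold change −0.13, SE 0.10, limma adjusted p = 0.661, and −0.061 without CEBPβ-A replicate 3). Compared by replicate number, Psmb9 was lower in CEBPβ-A at each number. With the replicate number in the fit it did not pass either (limma adjusted p = 0.455). Psmb6, which encodes the constitutive caspase-like subunit β1, stood at 87.3, 86.3 and 109 FPKM in CEBPβ-A and at 79.8, 79.8 and 89.7 FPKM in CEBPβ. In CEBPβ-A replicate 3, Psmb9 was at the lowest and Psmb6 at the highest of their 6 values. For Psmb6 the log2 fold change was 0.17 (SE 0.11, limma adjusted p = 0.602), and 0.064 without that library.

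Psmb10, the gene of the inducible trypsin-like subunit β2i, stood at 36.8, 36.1 and 42.1 FPKM in CEBPβ-A and at 32.4, 36.8 and 33.3 FPKM in CEBPβ (log2 fold change 0.16, SE 0.089, limma adjusted p = 0.591, and 0.092 without CEBPβ-A replicate 3). Its counterpart Psmb7, the gene of β2, stood at 26.0, 27.0 and 31.6 FPKM in CEBPβ-A and at 25.7, 25.0 and 23.2 FPKM in CEBPβ. Here the inducible gene had the higher level in each library, unlike in the other pairs. The Psmb7 groups did not overlap, although the difference did not pass (log2 fold change 0.18, SE 0.093, limma adjusted p = 0.589, and 0.10 without CEBPβ-A replicate 3).

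**Figure D1:**
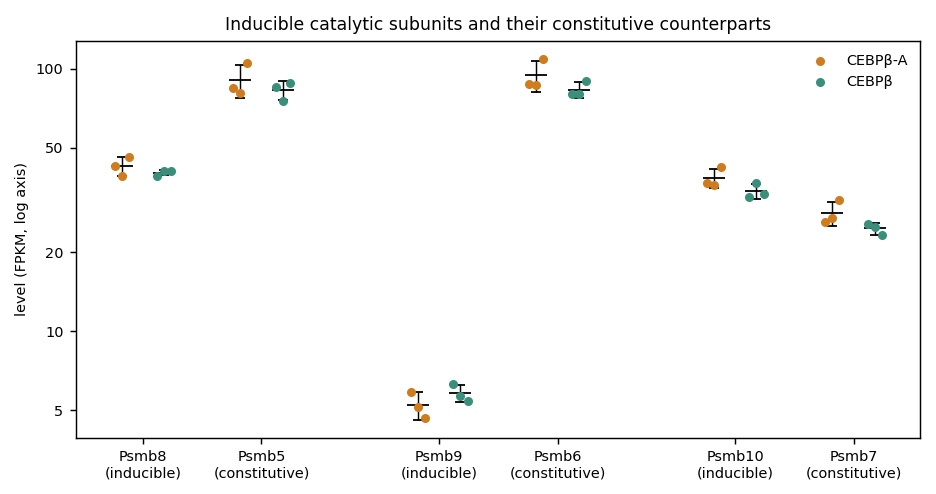
Level in FPKM (log axis) of each inducible catalytic subunit gene and its constitutive counterpart, with 1 point per library, CEBPβ-A left of CEBPβ, and bars for mean and SD (n = 3). Psmb9 lies at 4.65 to 6.27 FPKM while Psmb5 and Psmb6 lie at 75.2 to 109 FPKM, and Psmb10 lies above Psmb7.

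Within a library, the ratio of an inducible subunit to its counterpart asks how far the balance leans to the immunoproteasome, without the scaling between libraries. Differences between libraries that go with transcript length stay in the ratio. Its size also depends on the gene lengths used for FPKM, which are not known here. Exonic lengths in GENCODE M21 were 3381 bases for Psmb8 and 899 for Psmb5, and 3660 for Psmb9 and 1872 for Psmb6. For Psmb10 and Psmb7 they were 1705 and 3421 bases. The ratio of Psmb8 to Psmb5 FPKM was 0.501, 0.482 and 0.436 in CEBPβ-A replicates 1, 2 and 3 and 0.462, 0.540 and 0.461 in CEBPβ replicates 1, 2 and 3. That of Psmb10 to Psmb7 was 1.41, 1.34 and 1.33 in CEBPβ-A and 1.26, 1.47 and 1.44 in CEBPβ. Neither ratio separated the groups. The ratio of Psmb9 to Psmb6 was 0.0674, 0.0594 and 0.0427 in CEBPβ-A and 0.0786, 0.0710 and 0.0604 in CEBPβ. It was lowest in CEBPβ-A replicate 3, and replicate 1 of CEBPβ-A lay within the range of CEBPβ. Compared by replicate number, the ratio of Psmb9 to Psmb6 was lower in CEBPβ-A at each number. The ratios of Psmb8 to Psmb5 and of Psmb10 to Psmb7 went in both directions.

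On the log2 scale, with 1 added to each FPKM, the mean ratio of CEBPβ-A minus that of CEBPβ was −0.042 for Psmb8 over Psmb5, −0.30 for Psmb9 over Psmb6 and −0.023 for Psmb10 over Psmb7. In an exact two-sided permutation test of 3 against 3 libraries, whose smallest possible p is 0.1, these gave p = 0.7, 0.2 and 0.8 (0.8, 0.6 and 0.8 adjusted over the 3 ratios). The test does not use the replicate number. The SDs between libraries were 0.31 in CEBPβ-A and 0.18 in CEBPβ for Psmb9 over Psmb6, so the difference of its means was within the SD of CEBPβ-A and above that of CEBPβ. Without CEBPβ-A replicate 3 that difference was −0.13, the one for Psmb10 over Psmb7 was −0.0094 and the one for Psmb8 over Psmb5 turned to 0.015.

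**Figure D2:**
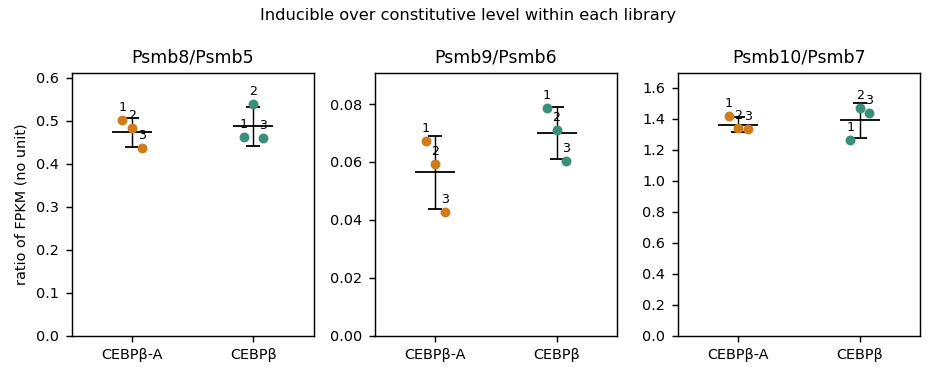
Ratio of FPKM of the inducible to the constitutive subunit within each library (points, numbered by replicate), with mean and SD (n = 3), CEBPβ-A left of CEBPβ and all axes from 0. The groups overlap in each panel, and the lowest Psmb9/Psmb6 ratio, 0.0427, is that of CEBPβ-A replicate 3.

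The start regions of the chymotrypsin-like and caspase-like pairs are shown because the members of a pair are known for different inputs, interferon for the inducible genes and the stress factor NRF1 for the constitutive ones. Each runs 5′ to 3′ on the gene's own strand from 250 bases before to 50 after the RefSeq start (build GRCm38.p6). Psmb8 lies at chr17:34197945-34198244 (+), Psmb5 at chr14:54617946-54618245 (−), Psmb9 at chr17:34187281-34187580 (−) and Psmb6 at chr11:70525107-70525406 (+). Capitals mark every match, on either strand, to the motifs GAAA repeated after any 2 bases (core of the interferon-stimulated response element), TTCNNNGAA (gamma-activated site), TGACNNNGC (core of the antioxidant response element) and the CCAAT box, none of which overlap in these windows.
Psmb8: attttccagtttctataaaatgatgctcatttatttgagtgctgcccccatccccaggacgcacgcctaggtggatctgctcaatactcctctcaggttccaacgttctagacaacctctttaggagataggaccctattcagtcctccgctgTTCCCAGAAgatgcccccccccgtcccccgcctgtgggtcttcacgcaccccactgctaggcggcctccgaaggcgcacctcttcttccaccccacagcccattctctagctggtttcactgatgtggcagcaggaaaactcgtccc
Psmb5: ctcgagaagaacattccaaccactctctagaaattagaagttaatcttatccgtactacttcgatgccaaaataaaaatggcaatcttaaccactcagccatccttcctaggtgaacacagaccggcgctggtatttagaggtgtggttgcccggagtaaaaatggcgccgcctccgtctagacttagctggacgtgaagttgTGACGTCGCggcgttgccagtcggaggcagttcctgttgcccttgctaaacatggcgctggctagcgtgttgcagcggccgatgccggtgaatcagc
Psmb9: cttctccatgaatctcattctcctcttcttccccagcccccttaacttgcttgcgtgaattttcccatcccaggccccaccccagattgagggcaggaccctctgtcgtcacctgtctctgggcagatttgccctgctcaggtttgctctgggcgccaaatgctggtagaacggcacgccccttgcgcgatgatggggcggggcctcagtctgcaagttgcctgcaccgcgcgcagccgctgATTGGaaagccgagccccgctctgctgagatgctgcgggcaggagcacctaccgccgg
Psmb6: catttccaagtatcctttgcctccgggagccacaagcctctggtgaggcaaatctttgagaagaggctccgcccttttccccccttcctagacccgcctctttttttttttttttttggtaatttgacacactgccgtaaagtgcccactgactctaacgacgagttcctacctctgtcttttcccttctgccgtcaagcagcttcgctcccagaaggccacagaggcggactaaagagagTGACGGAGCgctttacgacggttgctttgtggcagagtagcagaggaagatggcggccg

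Psmb5 and Psmb6 each held 1 match to TGACNNNGC, starting 47 and 9 bases before the start, Psmb8 held 1 to TTCNNNGAA at 97 bases before it, and Psmb9 held only a CCAAT box on the opposite strand at 8 bases before it. RefSeq windows matched 41 of the 49 genes by symbol, 44 windows in all. TGACNNNGC occurred in 4 of 27 windows of constitutive subunits (Psmb5, Psmb6, Psmc6 and Psmd12), in 0 of 6 of immunoproteasome members and in 12.4% of all 32851 windows. The interferon-stimulated core occurred in 2 of 27 constitutive windows, in 1 of 6 immunoproteasome windows (Psme1) and in 3.44% of all windows. TTCNNNGAA was in 1 of 27, 1 of 6 and 8.30% of all windows, and the CCAAT box in 10 of 27, 1 of 6 and 37.4%. Among the 11 windows of other members TGACNNNGC was in 2 (Psmd9 and Psme4) and the interferon-stimulated core in 2 (Psmd9 and Psmg4). TTCNNNGAA was in 1 of these 11 and the CCAAT box in 3. Over all 44 windows the shares were 13.6%, 11.4%, 6.82% and 31.8% in that order. A match is a description of the letters and not of binding.

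Psmb8 and Psmb9 lie side by side with the peptide transporter genes Tap1 and Tap2 in the MHC region of chromosome 17, where Psmb9 spans 34181988 to 34187764 on the minus strand and Psmb8 34197721 to 34201454 on the plus strand. The RefSeq start windows of Psmb9 and Tap1, which point away from each other, share 275 bases, so most of the sequence printed for Psmb9 is also the start region of Tap1. Tap1 stood at 3.38, 3.07 and 2.31 FPKM in CEBPβ-A and at 4.08, 4.10 and 4.95 FPKM in CEBPβ, with no overlap between the groups. Like Psmb9 it was lowest in CEBPβ-A replicate 3, but its difference was larger relative to its spread (log2 fold change −0.46, SE 0.13, limma adjusted p = 0.588, and −0.35 without that library). The annotated ends of the genes overlap on opposite strands, and the sources used here do not say whether counting used the strand.

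Of the activators, Psme1 and Psme2, the α and β subunits of PA28, are neighbours on chromosome 14 (55578123 to 55581529 and 55587441 to 55591113). Psme1 stood at 55.1, 50.9 and 59.5 FPKM in CEBPβ-A and at 50.8, 47.9 and 56.5 FPKM in CEBPβ (log2 fold change 0.091, SE 0.092, limma adjusted p = 0.714). Psme2 stood at 112, 111 and 130.2 FPKM in CEBPβ-A and at 108, 118 and 102 FPKM in CEBPβ (log2 fold change 0.10, SE 0.092, limma adjusted p = 0.688). For both genes the highest value was that of CEBPβ-A replicate 3 and the groups overlapped. Without that library the fold changes were 0.036 for Psme1 and 0.030 for Psme2.

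Psme2b, annotated as a retrogene copy of Psme2 on chromosome 11 (48945354 to 48946190), had the largest negative fold change of the 49 genes. Its levels were 13.8, 10.9 and 6.47 FPKM in CEBPβ-A and 13.3, 13.7 and 13.3 FPKM in CEBPβ. The low values came from replicates 2 and 3 of CEBPβ-A, and replicate 1 was above all of CEBPβ. The fold change was −0.40 (SE 0.22, limma adjusted p = 0.591), and −0.12 without replicate 3. Its reads may be shared with Psme2, so its level is uncertain. Psme3, which encodes the nuclear activator PA28γ, lay between 33.4 and 38.1 FPKM in all libraries (log2 fold change 0.040, SE 0.078, limma adjusted p = 0.865). Psme4, the gene of the large activator PA200, averaged 12.7 ± 1.61 FPKM in CEBPβ-A and 13.9 ± 1.25 FPKM in CEBPβ (SD, n = 3). The inhibitor gene Psmf1 (PI31) stood at 4.04, 3.13 and 2.88 FPKM in CEBPβ-A and at 3.98, 3.92 and 3.75 FPKM in CEBPβ. The fold changes of Psme4 and Psmf1 were −0.13 and −0.18 and did not pass (limma adjusted p = 0.687 and 0.609), and CEBPβ-A replicate 3 was the lowest library for both. Without it they were −0.027 for Psme4 and −0.098 for Psmf1.

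The constitutive subunits leaned upward as a group by a small amount. Of 32, 31 had a positive fold change, against 46.6% of all genes tested, and the median was 0.12 against −0.013 over all genes tested. The subunit genes were read in the same libraries and are not independent replicates. No constitutive subunit passed in limma, while 2 had an unadjusted p under 0.05 with a higher mean in CEBPβ-A (3.76% of all genes tested did). For 10 of the 32 the libraries did not overlap and CEBPβ-A was higher, against 7.89% of all genes tested, and for 0 it was lower, against 8.86%. CEBPβ-A replicate 3 held the highest value of 24 of the 32 genes. Without it the median was 0.042, against 0.00071 over all genes tested, and 25 of 32 were positive, against 50.4% of all genes tested. With 2 against 3 libraries 11 of 32 were separated upward, against 11.2% of all genes tested, and 0 downward, against 11%. The 5 immunoproteasome genes had a median of 0.091, with 4 positive and 0 separated in either direction, and a median of 0.030 without replicate 3 and 0.14 without CEBPβ-A replicate 2.

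**Figure D3:**
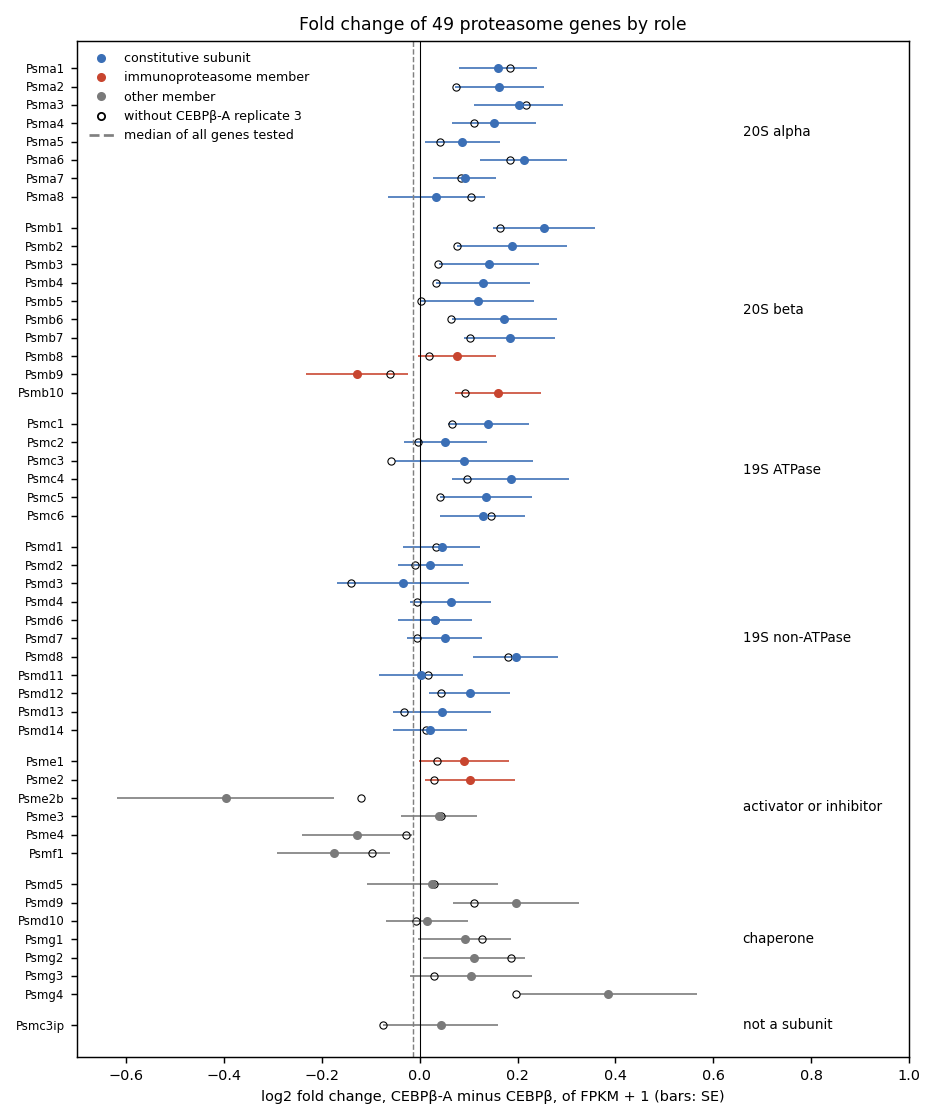
Log2 fold change of each of the 49 genes, CEBPβ-A minus CEBPβ on the log2(FPKM + 1) scale, with SE bars, grouped by role and coloured by class. Open circles leave out CEBPβ-A replicate 3, and the dashed line is the median of all genes tested, −0.013. Filled points of 31 of 32 constitutive subunits lie right of 0, and most open circles lie closer to 0.

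Among the α subunits, which form the gate of the 20S core, 8 of 8 fold changes were positive and 6 genes were higher without overlap between the groups (Psma1, Psma2, Psma3, Psma4, Psma6 and Psma7), against 7.89% of all genes tested. Psma6 stood at 104, 108 and 112 FPKM in CEBPβ-A and at 93.2, 103 and 83.8 FPKM in CEBPβ (log2 fold change 0.21, SE 0.090, unadjusted p = 0.0465, limma adjusted p = 0.588). Psma3 stood at 23.2, 22.6 and 22.2 FPKM in CEBPβ-A and at 21.8, 19.5 and 17.6 FPKM in CEBPβ (log2 fold change 0.20, SE 0.091, limma adjusted p = 0.588). For Psma1 and Psma3 replicate 3 was the lowest of CEBPβ-A, and the median of the 8 genes was 0.16 with it and 0.11 without it. CEBPβ replicate 3 was the lowest of all libraries for Psma1, Psma3, Psma4 and Psma6. Without CEBPβ replicate 3 their fold changes went from 0.16, 0.20, 0.15 and 0.21 to 0.10, 0.13, 0.085 and 0.14. Those of Psma2 and Psma7 were 0.16 and 0.10 without it. Psma1 (32.0 ± 1.03 FPKM in CEBPβ-A and 28.6 ± 2.13 in CEBPβ) and Psma7 (36.6 ± 0.448 in CEBPβ-A and 34.3 ± 0.838 in CEBPβ; SD, n = 3) had fold changes of 0.16 and 0.092 (limma adjusted p = 0.589 and 0.624). Psma2 stood at 27.7, 27.2 and 33.2 FPKM in CEBPβ-A and at 25.7, 26.4 and 25.9 FPKM in CEBPβ, and Psma4 at 37.6, 38.7 and 41.7 FPKM in CEBPβ-A and 36.6, 37.4 and 32.0 FPKM in CEBPβ. For both, the highest library was CEBPβ-A replicate 3. The fold change of Psma2 was 0.16, and 0.074 without that library. Over the 8 genes the fold changes ran from 0.034 (Psma8) to 0.21 (Psma6), and without CEBPβ-A replicate 3 the one of Psma8 was 0.10. Psma8 stood at 2.27, 2.23 and 1.80 FPKM in CEBPβ-A and at 2.20, 1.98 and 1.89 FPKM in CEBPβ and overlapped. As a close relative of Psma7 it may share reads with it.

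Among the 7 constitutive β subunits all fold changes were positive, from 0.12 (Psmb5) to 0.25 (Psmb1), with a median of 0.17, and 2 genes (Psmb1 and Psmb7) were higher without overlap, against 7.89% of all genes tested. Psmb1, the gene of the non-catalytic subunit β6, stood at 106, 109 and 129.7 FPKM in CEBPβ-A and at 101, 101 and 86.5 FPKM in CEBPβ. The groups did not overlap, with replicate 3 highest within CEBPβ-A and lowest within CEBPβ (log2 fold change 0.25, SE 0.10, unadjusted p = 0.0413, limma adjusted p = 0.588, and 0.17 without CEBPβ-A replicate 3). CEBPβ-A replicate 3 held the highest value of all 7 genes, and without it their median fold change was 0.064. The shift of that library from the CEBPβ mean was 0.35 in the median of these 7 genes, against 0.053 in CEBPβ-A replicate 1 and 0.10 in replicate 2.

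The 19S cap had smaller differences. Its 6 ATPase genes, the motor ring, had a median fold change of 0.13 and 0.054 without CEBPβ-A replicate 3, and its 11 non-ATPase genes had 0.045 and 0.013. Psmc1 alone among the 6 ATPases was higher without overlap (7.89% of all genes tested were), at 47.0, 49.0 and 56.2 FPKM in CEBPβ-A and at 46.5, 45.3 and 45.8 FPKM in CEBPβ (log2 fold change 0.14, SE 0.083, limma adjusted p = 0.598, and 0.066 without CEBPβ-A replicate 3). The ATPase gene Psmc4 had the highest fold change of the ring (0.19, SE 0.12, limma adjusted p = 0.608) and Psmc2 the lowest (0.052, SE 0.085, limma adjusted p = 0.833), while Psmc5 at 52.6 FPKM and Psmc6 at 18.5 FPKM were the ends of its range of mean levels. Without CEBPβ-A replicate 3 the fold change was 0.098 for Psmc4 and −0.0040 for Psmc2.

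Among the non-ATPase subunits, Psmd8, a lid subunit, stood at 58.2, 55.5 and 58.8 FPKM in CEBPβ-A and at 55.4, 45.4 and 49.9 FPKM in CEBPβ. It was the only one of the 11 higher without overlap, against 7.89% of all genes tested (log2 fold change 0.20, SE 0.087, limma adjusted p = 0.588, and 0.18 without CEBPβ-A replicate 3). Psmd2, the gene of the scaffold Rpn1, was the most abundant of this role and lay between 77.0 and 83.0 FPKM in all libraries (log2 fold change 0.021, limma adjusted p = 0.917). Psmd14, the gene of the deubiquitinase that removes ubiquitin chains from substrates, averaged 25.4 ± 0.819 FPKM in CEBPβ-A and 25.1 ± 1.51 FPKM in CEBPβ (SD, n = 3; log2 fold change 0.022, limma adjusted p = 0.925). Psmd3, a further lid subunit gene, was the one constitutive subunit with a negative fold change (−0.034, SE 0.13, limma adjusted p = 0.935). Its levels were 15.3, 20.5 and 22.3 FPKM in CEBPβ-A and 20.3, 18.4 and 20.2 FPKM in CEBPβ, so CEBPβ-A held both extremes. Psmd11 was the least abundant of the role at 10.5 FPKM, with a fold change of 0.0024. Without CEBPβ-A replicate 3 these fold changes were −0.0093 for Psmd2, 0.013 for Psmd14, −0.14 for Psmd3 and 0.016 for Psmd11.

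The 7 chaperone genes, whose products assemble the core (Psmg1 to Psmg4) or the base of the cap (Psmd5, Psmd9 and Psmd10) and leave the mature particle, all had positive fold changes, from 0.014 for Psmd10 to 0.39 for Psmg4. Psmg4 had the highest fold change of the 49 genes. It stood at 15.0, 16.7 and 23.9 FPKM in CEBPβ-A and at 14.3, 15.6 and 11.4 FPKM in CEBPβ. The groups overlapped at their edge, with 1 high library in CEBPβ-A and 1 low one in CEBPβ (SE 0.18, limma adjusted p = 0.588, and 0.20 without CEBPβ-A replicate 3). Psmd10, the gene of gankyrin, was the most abundant chaperone at 29.9 FPKM and Psmd9 the least at 2.97 FPKM. Without that library the fold change of Psmd10 was −0.0072. Psmc3ip stood at 2.58, 2.61 and 3.59 FPKM in CEBPβ-A and at 2.66, 2.83 and 2.88 FPKM in CEBPβ, a fold change of 0.043 that turned to −0.075 without CEBPβ-A replicate 3.

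**Figure D4:**
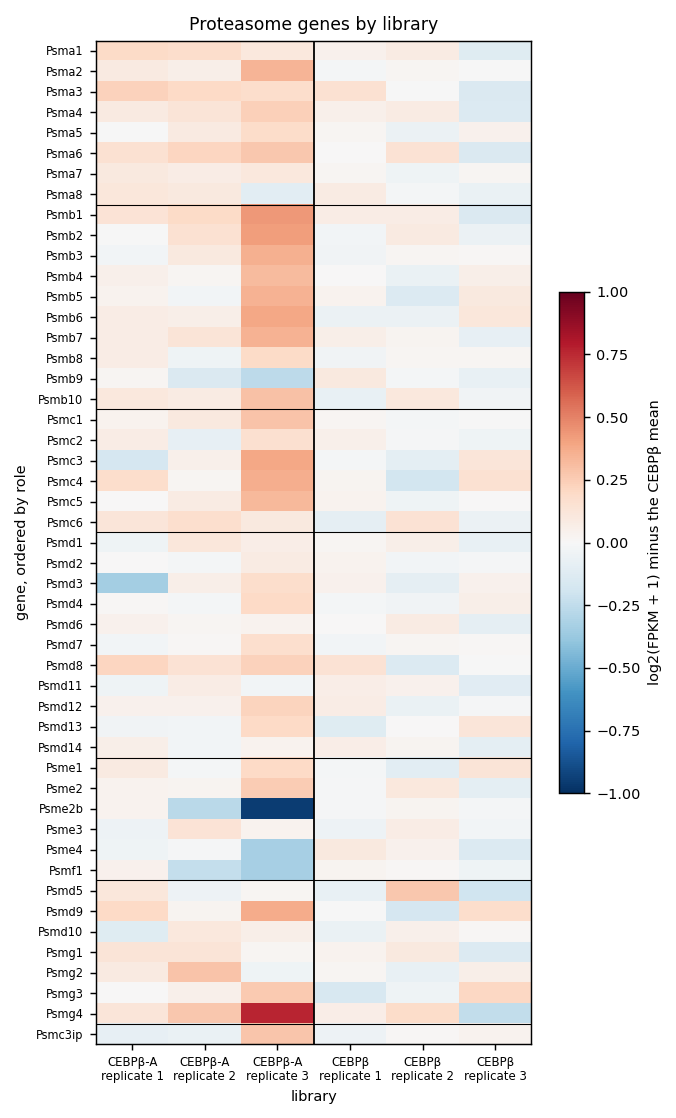
Log2(FPKM + 1) of each gene minus its mean in CEBPβ, by library, with CEBPβ-A left of CEBPβ and horizontal lines between roles. CEBPβ-A replicate 3 is red for most core and ATPase genes and blue for Psmb9, Psme2b, Psme4 and Psmf1.

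By library, the summed level of the 32 constitutive subunits was 1307, 1330 and 1515 FPKM in CEBPβ-A replicates 1, 2 and 3 and 1275, 1249 and 1247 FPKM in CEBPβ replicates 1, 2 and 3. The sum over all listed genes was also highest in CEBPβ-A replicate 3, at 313215 FPKM, against 278907 to 289761 FPKM in the other libraries. As a share of that sum the constitutive subunits took 0.455%, 0.462% and 0.484% in CEBPβ-A and 0.457%, 0.447% and 0.430% in CEBPβ. On this measure the groups overlapped, by CEBPβ replicate 1. The 5 immunoproteasome genes took 0.0876%, 0.0841% and 0.0902% in CEBPβ-A and 0.0849%, 0.0890% and 0.0822% in CEBPβ.

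Transcript length moved with these values, and its part in them was not tested. Over all genes with a length in GENCODE M21, the Spearman correlation of exonic length with fold change was −0.48, and −0.29 without CEBPβ-A replicate 3 (across genes, which are not independent replicates). Over the proteasome genes alone it was −0.27 with all libraries. The median exonic length was 2804 bases for constitutive subunits, 2209 for immunoproteasome members and 4378 for all genes tested. With a length trend removed from each library, an alternative chosen after seeing the data, the median fold change of constitutive subunits was 0.059, against 0.0021 over all genes tested, and that of immunoproteasome genes was 0.022. Of the 32 constitutive subunits, 25 were then positive, against 50.6% of all genes tested. No proteasome gene passed in limma there either.

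Of the proteins that work with the proteasome, 17 of 20 listed genes were tested, and none passed in either direction. Pomp, the maturation factor of the core, stood at 18.1, 19.8 and 21.2 FPKM in CEBPβ-A and at 17.6, 16.9 and 15.2 FPKM in CEBPβ, with no overlap (log2 fold change 0.24, SE 0.091, limma adjusted p = 0.588). Akirin2, a nuclear import factor of proteasomes, averaged 17.4 ± 0.889 FPKM in CEBPβ-A and 15.0 ± 1.51 FPKM in CEBPβ (SD, n = 3; log2 fold change 0.20, limma adjusted p = 0.588). Pomp and Akirin2 were the 2 of the 17 genes higher without overlap, and 0 were lower (7.89% and 8.86% of all genes tested were). The median of the 17 genes was 0.015, with 11 positive (46.6% of all genes tested were). Without CEBPβ-A replicate 3 it was 0.068, with 13 positive (50.4% of all genes tested were).

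Nfe2l1 encodes NRF1, the factor that induces constitutive proteasome genes when proteasome activity is short. It stood at 11.4, 7.75 and 8.24 FPKM in CEBPβ-A and at 11.8, 11.6 and 13.6 FPKM in CEBPβ, with no overlap (log2 fold change −0.41, SE 0.14, limma adjusted p = 0.588). Maff, a small MAF partner, had the smallest p after it in this list of 7 (9.28 ± 0.226 FPKM in CEBPβ-A and 5.56 ± 3.35 FPKM in CEBPβ; SD, n = 3; limma adjusted p = 0.588). None of the 7 passed, and their median fold change was −0.034, and −0.056 without CEBPβ-A replicate 3.

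Most regulators of the inducible subunits and partners in class I presentation had negative fold changes. Of 12 genes of class I antigen processing, 9 had a negative and 3 a positive fold change (46.6% of all genes tested were positive). In this list 4 were separated downward and 0 upward (8.86% and 7.89% of all genes tested were). A lower mean at an unadjusted p under 0.05 was found for 3 (4.42% of all genes tested), and none passed (median −0.073). Besides Tap1, the transactivator gene Nlrc5 stood at 2.88, 2.19 and 1.68 FPKM in CEBPβ-A and at 3.20, 3.26 and 3.14 FPKM in CEBPβ (log2 fold change −0.39, SE 0.14, limma adjusted p = 0.588, and −0.26 without CEBPβ-A replicate 3). Both are low in level. The abundant B2m, H2-D1 and H2-K1 overlapped, with fold changes of 0.022, −0.026 and −0.074. Without CEBPβ-A replicate 3 these were −0.0091, −0.12 and −0.15. Canx, also abundant, was lower without overlap (−0.15, and −0.072 without CEBPβ-A replicate 3). Of 12 regulators in the interferon and STAT pathway, 10 were negative and 2 positive, and 3 were separated downward and 1 upward. At an unadjusted p under 0.05, 4 had a lower and 1 a higher mean (4.42% and 3.76% of all genes tested did). None passed (median −0.15). Ifnar1, a chain of the type I interferon receptor, averaged 8.61 ± 1.13 FPKM in CEBPβ-A and 10.8 ± 0.277 FPKM in CEBPβ, and Irf8, a macrophage transcription factor, averaged 38.9 ± 3.57 FPKM in CEBPβ-A and 33.3 ± 0.598 FPKM in CEBPβ (SD, n = 3; limma adjusted p = 0.588 for both).

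Type I interferon response genes stood lowest in the same library that stood highest in proteasome genes. The median shift of 18 such genes from the CEBPβ mean was −0.10, −0.38 and −0.80 in CEBPβ-A replicates 1, 2 and 3 and −0.16, 0.16 and 0.0061 in CEBPβ replicates 1, 2 and 3. The 5 immunoproteasome genes had 0.078, −0.020 and 0.20 in CEBPβ-A and −0.023, 0.016 and −0.034 in CEBPβ. In CEBPβ-A replicate 3 the median of the immunoproteasome genes was thus at its highest and that of the interferon genes at its lowest, while Psmb9 was also at its lowest there. The part of the interferon genes in the proteasome values was not tested. Oasl2 and Bst2, the response genes with the smallest p, had fold changes of −0.66 and −0.45 (limma adjusted p = 0.588 for both), and none of the 18 passed. The median fold change of the 18 was −0.44, and −0.27 without CEBPβ-A replicate 3. These lists were chosen with earlier results of these data known, and the interferon shift is no independent support for any result on the proteasome.

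**Figure D5:**
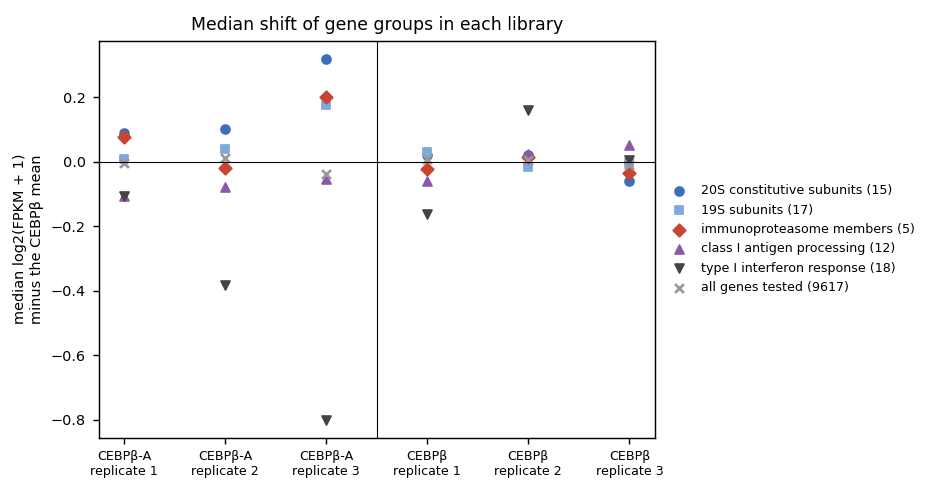
Median of log2(FPKM + 1) minus the CEBPβ mean for 6 groups of genes in each library (number of genes in brackets), with CEBPβ-A left of CEBPβ. In CEBPβ-A replicate 3 the 20S constitutive subunits lie at 0.32 and the interferon response genes at −0.80, while all genes tested lie at −0.038.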

How the data were processed

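RNA was sequenced from 3 CEBPβ-A and 3 CEBPβ libraries, stranded and made with a KAPA kit per the labels' protocols. The authors deposited 1 table of FPKM values for 10539 genes, per the file headers. The submitters' processing notes name the build GRCm38. An aligner, an FPKM program, an annotation release and a rule for multi-mapped reads were not given in the sources used here. Of the 9 value columns that the header names, 6 are present in the table analysed, each matched to a sample by its description. Depth is unknown, so no counting interval is given. FPKM is relative to each library's total, and differences in RNA integrity or transcript length stay in it.

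Genes averaging 1 FPKM or more were put on log2(FPKM + 1) and fitted with limma 3.58.1 (R 4.3.3) with an intensity trend and no covariate, after a check on simulated data. P-values were two-sided. Exonic lengths are unions of GENCODE M21 exons, and promoter windows are RefSeq's (GRCm38.p6). The members and lists were chosen with earlier results of these data known. The rule for named genes took the 5 immunoproteasome genes, their counterparts, extremes of level and fold change per role, members with an unadjusted p under 0.05 and Psmc3ip, which gave 25 members, and in each pathway list the 2 genes with the smallest p. A further 9 were named after their values were seen (Psma1, Psma2, Psma3, Psma4, Psma7, Psmc1, Psmd14, Psme3 and Psme4). So were the class I genes B2m, H2-D1, H2-K1 and Canx. The remaining members appear in counts. The alternatives tried were upper-quartile, median-of-ratios and quantile scaling, pseudocounts of 0.5 and 0.1, a minimum of 5 FPKM or none, a robust prior in limma or no trend, a replicate block, the omission of each library and, chosen after seeing the data, removal of a length trend.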

Additional observations from a re-analysis of the deposited data

How the results depend on the processing

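The number of proteasome genes past the threshold was 0 in limma under all 17 alternatives, and the smallest adjusted p of any of them was 0.372 (Psma3, replicate block). Over all genes the count was 5, and it was 0 with a mean of at least 5 FPKM, 2 after quantile normalization, 1 with the replicate block and 1 to 9 with single libraries left out (1 without CEBPβ-A replicate 1, 3 without replicate 2 and 9 without replicate 3; 3 without CEBPβ replicate 1, 4 without replicate 2 and 2 without replicate 3). Libraries with the same replicate number deviated together in part (r = 0.099, 0.25 and 0.26 for numbers 1, 2 and 3), and each library correlated best with its own number. The labels do not say what a number marks, so whether the libraries are paired is not known. The main fit and the ratio tests do not use the number. With the block 5 proteasome genes had an unadjusted p under 0.05, against 2 without it. The share over all genes tested is not given for the block, so this rise is not read as a result about the proteasome. The median fold change of constitutive subunits was 0.042 to 0.15 with single libraries left out, lowest without CEBPβ-A replicate 3, and 0.059 with the length trend removed. That of immunoproteasome genes was 0.030 to 0.14. The other scalings left the constitutive median between 0.084 (quantile) and 0.14 (median of ratios).

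The difference in the log2 ratio of Psmb8 to Psmb5 ran from −0.084 to 0.032 with single libraries left out and was 0.087 with the length trend removed. That of Psmb10 to Psmb7 ran from −0.088 to 0.017, and that of Psmb9 to Psmb6 from −0.43 to −0.13 without a change of sign. With the length trend removed they were −0.10 for Psmb10 to Psmb7 and −0.22 for Psmb9 to Psmb6. Of 34 named members, 24 kept the sign of their fold change in every alternative. Those that did not had fold changes of at most 0.12 in size. With single libraries left out, Psma8 ran from −0.0054 to 0.10, Psmc2 from −0.0040 to 0.12, Psmc3ip from −0.075 to 0.10, Psmd10 from −0.031 to 0.081, Psmd11 from −0.054 to 0.037, Psmd14 from −0.026 to 0.055, Psmd2 from −0.0093 to 0.043, Psmd3 from −0.14 to 0.12 and Psme3 from −0.0076 to 0.084. With the length trend removed, Psma8 was at −0.023, Psmb5 at −0.033, Psmd14 at −0.022, Psmd10 at −0.097 and Psmc3ip at −0.048. After quantile normalization Psmd2 was at −0.030, Psme3 at −0.00070 and Psmd10 at −0.0062. The cause of these changes was not tested. Depth is unknown, and 3 libraries a group limit the precision.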
